A study of Rattus rattus with 18 samples.

Results

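Immune and inflammation-linked microRNAs (miRNAs) were examined in a rat model of stroke, and all 9 miRNAs listed were found among the 761 rat miRNA probes of the array. The members were rno-miR-155-5p, rno-miR-146a-5p, rno-miR-146b-5p, rno-miR-223-3p, rno-miR-142-3p, rno-miR-142-5p, rno-miR-150-5p, rno-miR-21-5p and rno-miR-21-3p, chosen by name as miRNAs of leukocytes, microglia and inflammatory signalling. They were described on 18 single-colour arrays of brain tissue from 9 Sprague Dawley rats, in groups of 3: sham-operated, transient middle cerebral artery occlusion (tMCAO), and remote limb postconditioning (PostC). Each rat gave 1 array labelled core and 1 labelled peri, so a group of a region holds 3 arrays. In tMCAO a filament blocks the artery and is then withdrawn, whereas sham-operated rats undergo the surgery without the block. The labels do not say whether the PostC rats also underwent tMCAO, nor which time after reperfusion the arrays stand for. They place core in the temporo-parietal cortex and peri in the striatum, whereas the methods have it the other way round, so no tissue is named for either here. According to the methods the rats were male.

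A miRNA is a short RNA that guides the silencing machinery to messenger RNAs, mainly through pairing of its seed, the bases near its 5′ end. In an inflammatory response miR-155 is induced in activated macrophages and microglia, where it favours the response, and miR-146a is induced by NF-κB and restrains the same signalling. miR-223 and miR-142 are miRNAs of blood-forming cells, miR-150 is abundant in mature lymphocytes, and miR-21 is a widely expressed miRNA known to respond to tissue injury. Ischemic tissue draws in such cells over time, and the tissue studied here was bulk tissue. More cells of a type and more of a miRNA per cell cannot be told apart in it.

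The sequences that the 9 probes detect, as given with the arrays, are shown because the seed decides which members could act on the same messages and because overall likeness decides which probes could share signal. The seed, bases 2 to 8 from the 5′ end, is in capitals.
rno-miR-155-5p: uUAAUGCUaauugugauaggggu
rno-miR-146a-5p: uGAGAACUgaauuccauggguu
rno-miR-146b-5p: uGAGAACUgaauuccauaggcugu
rno-miR-223-3p: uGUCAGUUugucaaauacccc
rno-miR-142-3p: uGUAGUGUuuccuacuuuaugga
rno-miR-142-5p: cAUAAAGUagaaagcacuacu
rno-miR-150-5p: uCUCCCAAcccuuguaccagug
rno-miR-21-5p: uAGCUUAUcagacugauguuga
rno-miR-21-3p: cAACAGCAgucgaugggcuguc

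Only miR-146a-5p and miR-146b-5p shared a seed, and no other probe of the 761 carried a seed of any member. These sequences differ from each other by 3 edits (substitutions, insertions or deletions), at their 3′ ends, so that the 2 probes may share signal, which was not tested. Every other member was at least 7 edits from its nearest neighbour on the array. Lengths ran from 21 to 24 bases. The GC content was lowest for miR-142-5p, at 33.3%, and highest for miR-21-3p, at 59.1%.

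A miRNA was called detected on an array when the median of its 4 spots was more than 3 scaled median absolute deviations above that of the 612 empty spots. This limit lay between 49.1 and 566 intensity units, depending on the array. By this measure the members fell into a clear group and a dim group. miR-146a-5p, miR-146b-5p, miR-150-5p and miR-21-5p were detected on all 18 arrays. miR-142-5p was detected on 5 arrays, miR-223-3p on 4, miR-155-5p and miR-21-3p on 3 each, and miR-142-3p on 1. Statistical tests covered the 532 miRNAs detected on at least 3 arrays, among them 8 of the 9 members, and miR-142-3p was left out. miR-155-5p entered the tests through tMCAO core (2 arrays) and PostC core (1 array) only. A second limit, from the dimmest 25% of miRNA spots, put miR-155-5p above background on all 3 tMCAO core and all 3 PostC core arrays and on none of the 12 others. It put miR-142-5p above background on 10 arrays, with 2 of tMCAO core and 3 of sham core. For miR-223-3p there were 9, with 3 of tMCAO core, 3 of PostC core and 2 of sham core. For miR-21-3p there were 7 and for miR-142-3p 1. Below, detected, detectable and above background refer to the limit from the empty spots unless the second limit is named.

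**Figure D1:**
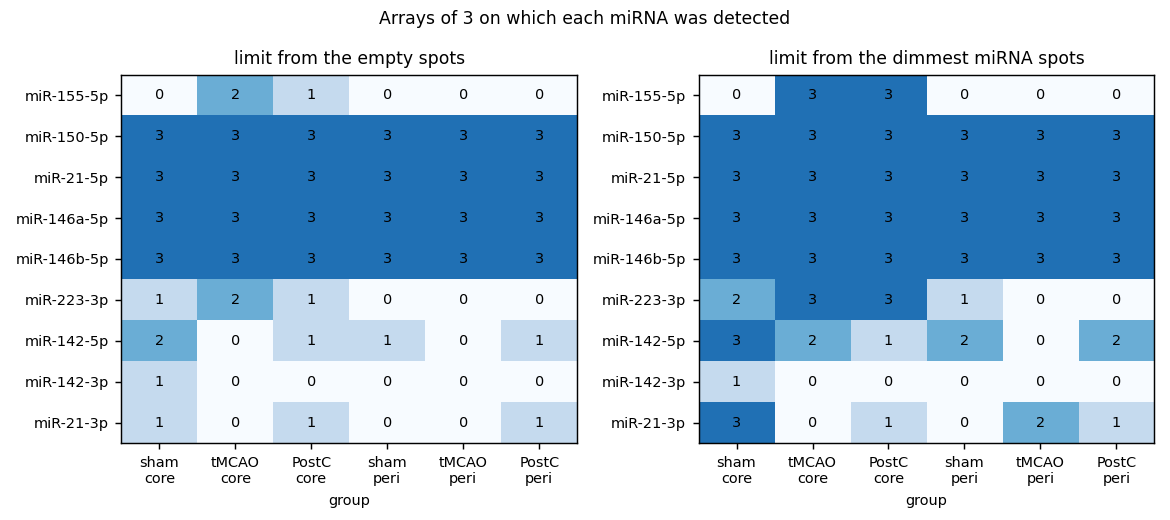
Each cell gives the number of arrays (of 3) on which a miRNA (rows) was detected in a group (columns), with the limit from the empty spots on the left and that from the dimmest 25% of miRNA spots on the right. 4 members were detected on every array, and miR-155-5p was detected in tMCAO core and PostC core only.

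Between arrays of a group and region, the correlation over miRNAs was at least 0.891 outside PostC core and ranged from 0.831 to 0.926 in PostC core. The core array of PostC rat 3 stood apart. It had 605 detected miRNAs, against 188 to 524 on the others, and 8 of the 9 members lay above its limit. For most comparisons of PostC, values without this rat are therefore also given. All levels below are normalized log2 intensities, and a difference between them is a log2 fold change relative to the other miRNAs of the array.

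**Figure D2:**
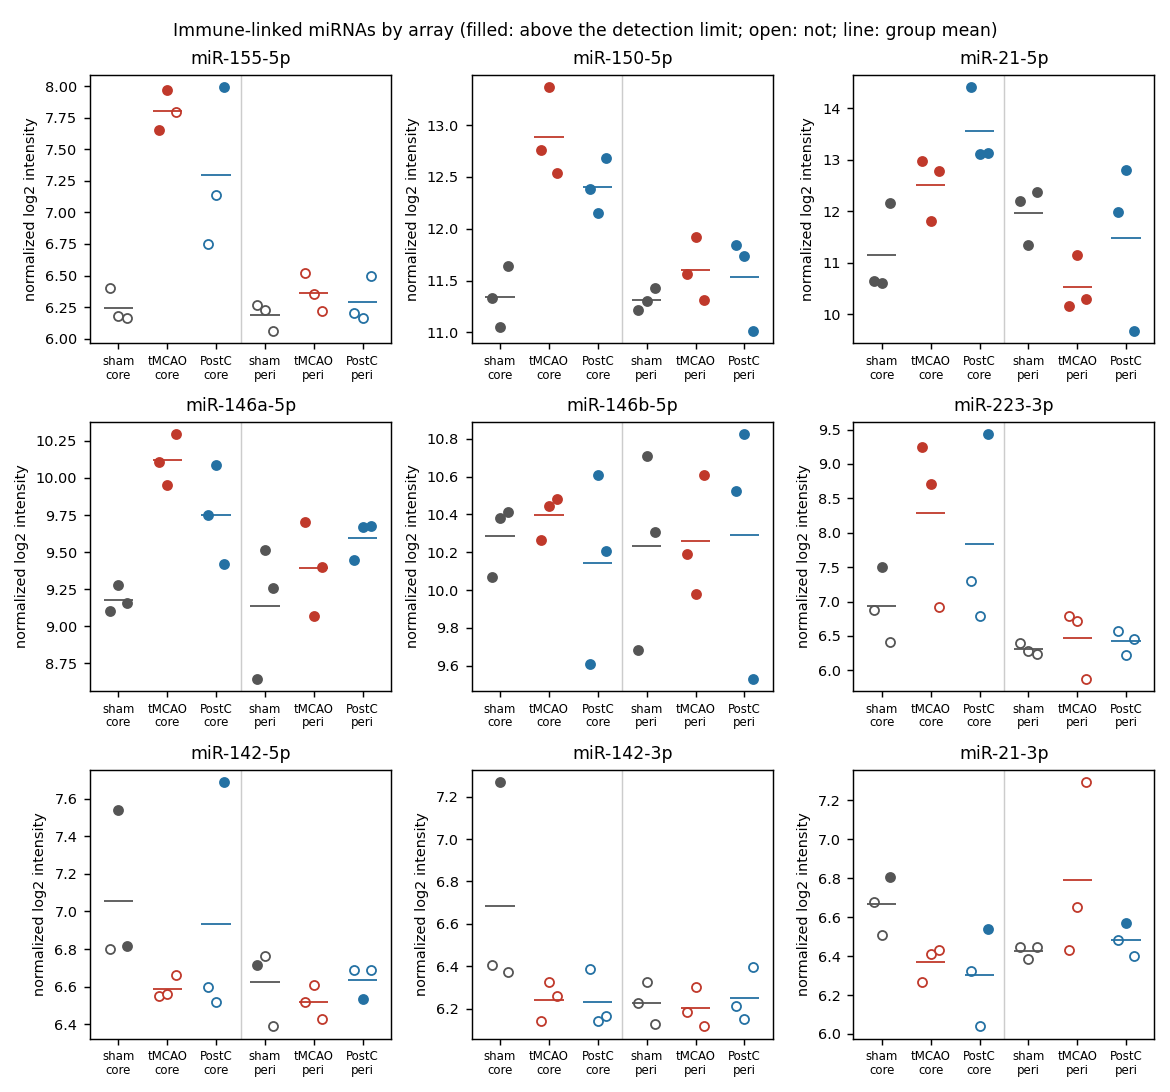
Normalized log2 intensity (vertical axis, a separate range per panel) of each member on the 18 arrays, by group (horizontal axis), with 1 point per array and a line at the group mean. Filled points are above the detection limit, open points are not. In core, the 3 tMCAO arrays lie above the 3 sham arrays for miR-155-5p, miR-150-5p and miR-146a-5p. They lie below them for miR-142-5p, miR-142-3p and miR-21-3p, which were not detected in tMCAO core. In peri the 3 tMCAO arrays lie below the 3 sham arrays for miR-21-5p. Of the 532 miRNAs tested, 41.9% had groups without overlap in core and 31.2% in peri.

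The first group comprises the miRNAs of inflammatory signalling. miR-155-5p rose in tMCAO core. Its level was 6.40, 6.18 and 6.16 in sham core and 7.66, 7.97 and 7.80 in tMCAO core. The groups did not overlap, and every tMCAO array was more than 1 log2 unit above every sham array. In peri all 9 arrays lay between 6.06 and 6.52, below the limit, so no change can be given there. Median spot intensities in tMCAO core were 162, 227 and 159.9 units, and the last of these was below that array's limit of 240.0 units. As no sham core array was above background, the change is a bound, at least 2.07-fold higher in tMCAO core, where 2 of the 3 arrays were detected. The bound itself was not tested. The fitted difference, which is not a measured fold, had an adjusted p of 0.0303 in limma with Benjamini-Hochberg adjustment over 532 miRNAs. Since miR-155-5p was among the 532 only through the core groups in which it was high, the fit over all 761 miRNAs without a filter is also given, with an adjusted p of 0.0490. The fitted difference was 1.56 (standard error 0.31, n = 3 rats per group), and 5.07 with plain subtraction of the background. Leaving out any 1 of the 6 rats raised the adjusted p above the threshold, to between 0.0537 and 0.134.

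When core and peri of a rat were averaged, miR-155-5p was 7.09, 7.16 and 7.01 after tMCAO and 6.33, 6.20 and 6.11 in sham-operated rats, a fitted difference of 0.87 (standard error 0.18, adjusted p = 0.0129 in limma). With tMCAO rat 2 left out the adjusted p was 0.0651. The fitted value is not a measured fold, since no sham array and no tMCAO peri array was above background, and miR-155-5p was tested only because of the core groups in which it was high.

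miR-146a-5p, the negative regulator, was 9.10, 9.28 and 9.16 in sham core and 10.11, 9.95 and 10.29 in tMCAO core. The groups did not overlap, yet the difference of 0.94 (standard error 0.35) did not pass the adjusted threshold (unadjusted p = 0.0224, adjusted p = 0.158 in limma). In peri its values overlapped, with 8.65 to 9.51 in sham-operated and 9.07 to 9.71 in tMCAO rats. The difference there was 0.25 (standard error 0.35, adjusted p = 0.745 in limma). The rat means differed by 0.60 (standard error 0.24, adjusted p = 0.117 in limma), a difference that was -0.09 with median scaling and 0.78 with the trend on GC content removed, where it passed (adjusted p = 0.0367).

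miR-146b-5p, which shares the seed, had overlapping groups in both regions. It was 10.07 to 10.42 in sham core and 10.26 to 10.48 in tMCAO core, a difference of 0.11 (standard error 0.36, adjusted p = 0.872 in limma), which was -0.04 with median scaling. In peri the difference was 0.03 (standard error 0.42). To set the 2 probes against each other within an array, the level of miR-146b-5p was subtracted from that of miR-146a-5p. This value ran from -1.26 to -0.97 in sham core and from -0.50 to -0.15 in tMCAO core, a shift of 0.83 between groups that did not overlap (exact permutation, p = 0.1 two-sided; with 3 rats a group no smaller p can be reached). In PostC core it ran from -0.79 to 0.14, a shift of 0.72 (exact permutation p = 0.1) that was 0.92 without PostC rat 3 (2 rats against 3, exact permutation p = 0.1, the lowest possible), and in tMCAO peri it overlapped sham peri, with a shift of 0.22 (exact permutation p = 0.5). In PostC peri it ran from -1.15 to 0.14, a shift of 0.40 (exact permutation p = 0.6), and the upper end was that of rat 3. The fitted differences of PostC peri from sham peri were 0.46 for miR-146a-5p and 0.06 for miR-146b-5p. Without rat 3 they were nearly equal, at 0.42 and 0.44. These groups are too small for the test to reach 0.05, so an unequal change of the 2 probes is not established.

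The second group comprises the miRNAs of blood-borne immune cells. miR-150-5p, the lymphocyte miRNA, rose in tMCAO core. Its level was 11.33, 11.06 and 11.64 in sham core and 12.76, 13.37 and 12.54 in tMCAO core. Every tMCAO array exceeded every sham array, and all of them were above background. The difference was 1.55 (standard error 0.30, adjusted p = 0.0303 in limma). With 1 rat left out the adjusted p ranged from 0.0462, without tMCAO rat 3, to 0.134, and it passed only without that rat. Plain subtraction of the background gave 1.57 with an adjusted p of 0.153, and quantile normalization, median scaling, the authors' deposited normalized intensities and the methods' t-test also ended the call, with adjusted p of 0.0536, 0.0569, 0.0511 and 0.0891.

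In peri miR-150-5p was 11.22, 11.30 and 11.43 in sham-operated and 11.56, 11.92 and 11.31 in tMCAO rats. These ranges overlapped, and the gap of 0.28 (standard error 0.32, adjusted p = 0.690 in limma) was -0.68 with median scaling. The rat means rose by 0.92 (standard error 0.23, adjusted p = 0.0310 in limma). Median scaling reduced this to 0.45 and ended the call (adjusted p = 0.251), as did leaving out tMCAO rat 1 or 2 or sham rat 1 or 2, with adjusted p of at most 0.141. The call was also lost with plain subtraction (adjusted p = 0.0933) and the methods' t-test (0.109).

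miR-223-3p, a miRNA of neutrophils and other myeloid cells, varied among rats of a group. It was 9.24, 8.71 and 6.92 in tMCAO core, with the last below the limit, and 6.88, 7.51 and 6.42 in sham core. Both tMCAO rats with detectable signal were above all sham rats, whereas the third was not, and the difference of 1.35 (standard error 0.75) did not pass (adjusted p = 0.303 in limma). It was 2.04 without tMCAO rat 3 and 0.88 without tMCAO rat 1. Among PostC core arrays the miRNA was detected on that of rat 3 alone, at 9.43. No peri array of any group was above the limit from the empty spots.

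The arms of miR-142, a miRNA of blood-forming lineages, were not above the limit from the empty spots on any tMCAO array. miR-142-5p was 6.80, 7.54 and 6.82 in sham core, detected on 2 arrays, and 6.55 to 6.66 in tMCAO core, not detected on any. Detection limits were higher on the tMCAO core arrays (77.4 to 240.0 units) than on 2 of the 3 sham core arrays (58.5 and 49.1 units), so no fold change is given. miR-142-3p was detected on the core array of sham rat 2 alone, at 7.27, and was between 6.12 and 6.40 on the other 17 arrays. All values of miR-142-5p in peri lay between 6.39 and 6.76.

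The third group is miR-21, the injury-responsive miRNA, with both arms on the array. miR-21-5p was 10.65, 10.61 and 12.16 in sham core and 12.97, 11.80 and 12.79 in tMCAO core. Sham rat 3 was above the lowest tMCAO rat, so that the groups overlapped. The difference of 1.38 (standard error 0.52) had an unadjusted p of 0.0246 and an adjusted p of 0.160 in limma. In peri the order was the opposite. There miR-21-5p was 12.20, 11.35 and 12.37 in sham-operated and 10.16, 11.15 and 10.30 in tMCAO rats. The groups did not overlap, but the difference of -1.44 (standard error 0.64, unadjusted p = 0.0444) did not pass the adjusted threshold (adjusted p = 0.307 in limma). With median scaling, which put the median of all miRNAs at -0.41 and under which 23.7% of them passed, it was -2.39 with an adjusted p of 0.0344.

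Within each rat, miR-21-5p was lower in core than in peri in all 3 sham-operated rats, by log2 differences of -1.55, -0.74 and -0.20, and higher in core in all 3 tMCAO rats, by 2.81, 0.66 and 2.49. All 3 PostC rats also had a higher level in core, by 2.44, 0.30 and 3.47. The tMCAO change in core thus exceeded that in peri by 2.82 (standard error 0.92, unadjusted p = 0.0133), with an adjusted p of 0.444 in limma. The mean of both regions differed by only -0.03 between tMCAO and sham-operated rats.

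miR-21-3p, the passenger arm, was detected on 3 arrays only: sham core rat 3, PostC core rat 3 and PostC peri rat 2. Its level lay between 6.04 and 6.81 on all arrays but that of tMCAO peri rat 3, where it was 7.29 and below a limit of 338 units. No fold change is given for it.

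**Figure D3:**
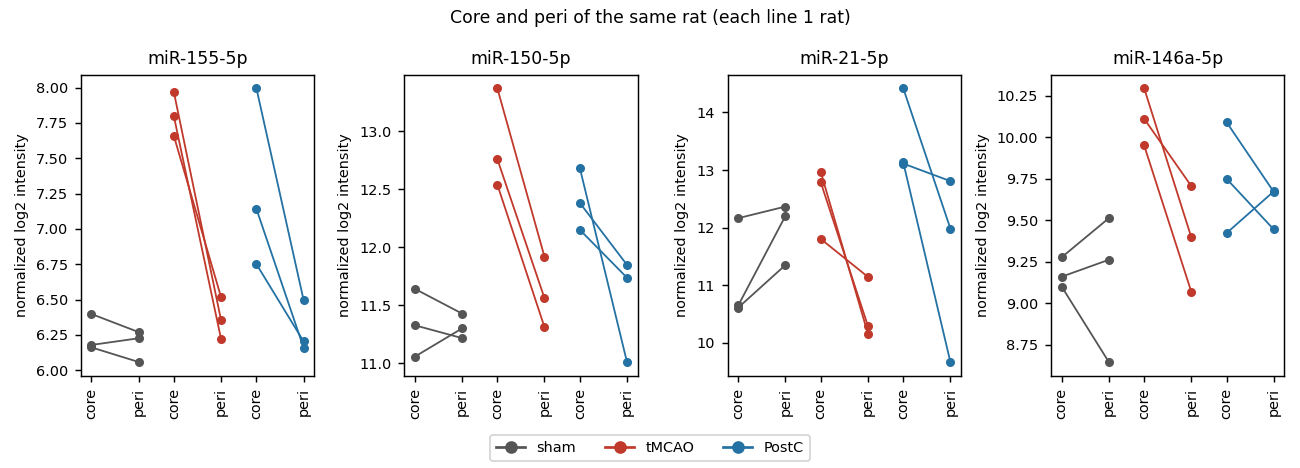
Normalized log2 intensity (vertical axis, a separate range per panel) in core and peri of each rat, with 1 line per rat, for miR-155-5p, miR-150-5p, miR-21-5p and miR-146a-5p. All 3 lines of miR-21-5p run upward from core to peri in sham-operated rats, and downward in tMCAO and PostC rats.

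Whether the tMCAO change differed between core and peri was tested within rats. The difference of the changes, core minus peri, was 1.27 for miR-150-5p (standard error 0.47, unadjusted p = 0.0248), beside the 2.82 of miR-21-5p. An unadjusted p under 0.05 was also obtained for miR-155-5p and miR-21-3p. Neither was above the limit from the empty spots on a peri array of tMCAO or sham-operated rats. The second limit put miR-21-3p above background on 2 tMCAO peri arrays and on no sham peri array. With a group at background, their differences are not measured changes. This count of 4 of 8 members is therefore not read against the 8.65% of all 532 miRNAs. None passed after adjustment (adjusted p from 0.444 to 0.562 in limma), and neither did any other miRNA (0% called).

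**Figure D4:**
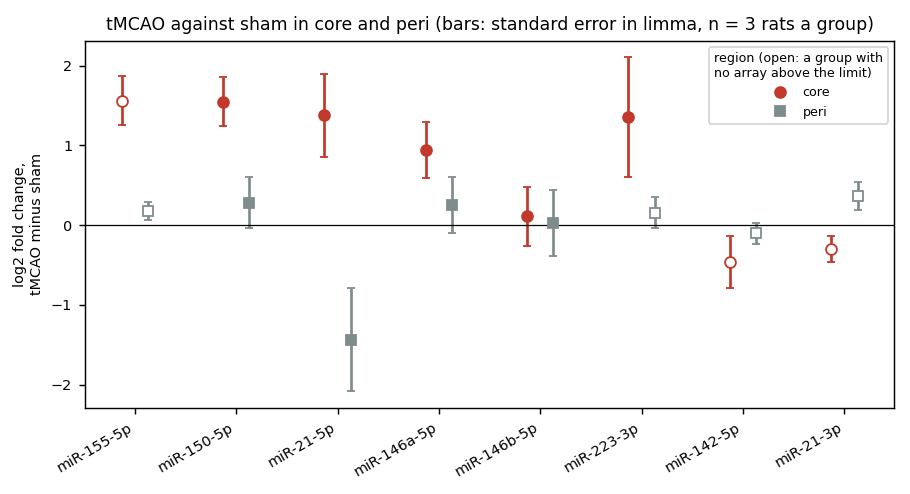
Fitted log2 fold change of tMCAO against sham (vertical axis) for the 8 members tested (horizontal axis), in core (circles) and peri (squares), with bars for the standard error in limma and n = 3 rats per group. Open symbols mark members without an array above the detection limit in at least 1 of the 2 groups, whose value is not a measured fold. In core, miR-155-5p and miR-150-5p have fitted values of 1.56 and 1.55, and in peri miR-21-5p has -1.44.

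Counted over the members, 2 of the 8 tested passed the adjusted threshold in core, both higher after tMCAO, where 3.57% of all 532 miRNAs passed. An unadjusted p under 0.05 was reached by 4 of the 8 (21.4% of all miRNAs), and groups without overlap were seen in 5 of the 8 (41.9% of all), including miR-142-5p and miR-21-3p, which were not detected in tMCAO core. The median log2 difference of the 8 was 1.15, and that of all miRNAs tested was -0.06. In peri none of the 8 passed in limma, as against 0.564% of all. There 1 of 8 had an unadjusted p under 0.05 (15% of all miRNAs), and that miRNA, miR-21-5p, was also the only member without overlap (31.2% of all). In the rat means 2 of 8 passed, where 11.8% of all did. The members were not drawn at random and some of the 8 were tested because of the group in which they were high, so these shares and the median are descriptions. The median also includes the fitted values of miR-155-5p, miR-142-5p and miR-21-3p in core, which are not measured folds.

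PostC rats were compared with sham-operated rats first. In PostC core miR-21-5p was 14.42, 13.11 and 13.13, above all sham core and all tMCAO core arrays. Between PostC core and tMCAO core, 18.4% of all miRNAs had groups without overlap. The difference of miR-21-5p there was 1.04 (standard error 0.52, unadjusted p = 0.0752) and did not pass (adjusted p = 0.478 in limma). Without PostC rat 3 it was 1.25 (adjusted p = 0.569). The difference from sham core was 2.41 (standard error 0.52, unadjusted p = 0.000926) and did not pass the adjusted threshold (adjusted p = 0.0829 in limma). Without PostC rat 3 it was 2.63 (adjusted p = 0.0836). In peri miR-21-5p was 11.98, 12.81 and 9.67, a wide range that overlapped both other groups. Its difference there was -0.49 from sham-operated rats (adjusted p = 0.995 in limma) and 0.95 from tMCAO rats (adjusted p = 0.813). Both rested on rat 3: without it they were 0.42 (adjusted p = 0.868) and 1.86 (standard error 0.41), and the latter passed (adjusted p = 0.0182), as did 11.1% of all miRNAs in that fit. With all rats, 0% of miRNAs passed between PostC and tMCAO in peri. Rat 3 was set apart by its core array, whereas these comparisons use its peri array.

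miR-155-5p was 6.75, 7.14 and 7.996 in PostC core, all above the 3 sham core arrays. Only the array of rat 3 was above the limit from the empty spots, so no fold is given, and the fitted difference of 1.05 (standard error 0.31) did not pass (adjusted p = 0.129 in limma). Without PostC rat 3 no array of either group was above the limit from the empty spots, and no change is given. miR-150-5p was 12.38, 12.15 and 12.68 in PostC core, also without overlap with sham core, a difference of 1.06 (standard error 0.30, adjusted p = 0.129 in limma) that was 0.92 without PostC rat 3 (adjusted p = 0.177). In core 3 of the 8 members tested had an unadjusted p under 0.05 (16.9% of all miRNAs), 4 had groups without overlap (22.2% of all), and neither a member nor any other miRNA passed after adjustment (0%). Without PostC rat 3 the count at an unadjusted p under 0.05 was 4 of 8 (21.4% of all miRNAs), and again none passed.

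In the rat means of PostC against sham, miR-150-5p differed by 0.64 (standard error 0.23, unadjusted p = 0.0183, adjusted p = 0.277 in limma), and by 0.70 without PostC rat 3. The fitted value of miR-155-5p was 0.58 (unadjusted p = 0.00869, adjusted p = 0.247), which is not a measured fold, since by the limit from the empty spots it was detected on 1 PostC array and on no sham array. Without PostC rat 3, whose core array was the detected one, the fitted value was 0.35 (adjusted p = 0.235). An unadjusted p under 0.05 was reached by these 2 of 8 members, against 13.9% of all miRNAs, and no member passed after adjustment, against 0.188% of all. Without PostC rat 3 these counts were 3 of 8 (16.5%) and 0 (0%). The third member was miR-21-5p, at 1.52 (standard error 0.34, unadjusted p = 0.00122, adjusted p = 0.108 in limma). With all rats miR-21-5p differed by 0.96 (adjusted p = 0.358). The fitted value of miR-155-5p was 0.11 with the authors' deposited normalized intensities, in which most of its values lie below the floor of 50 units set here.

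Against tMCAO rats, the rat means of PostC gave no member with an unadjusted p under 0.05 (18.2% of all miRNAs), and none passed after adjustment in limma (6.02% of all miRNAs passed). This depended on 1 rat and on the processing. Without PostC rat 3, miR-21-5p was higher in PostC than in tMCAO rats by 1.55 (standard error 0.34, adjusted p = 0.0275 in limma), in a fit where 5.83% of all miRNAs passed. miR-155-5p also passed there, with a fitted value of -0.52 (adjusted p = 0.0275), but no array of the remaining PostC rats was above the limit from the empty spots, so this is not a measured fold, and in core alone it did not pass (adjusted p = 0.103). With all rats, the authors' deposited normalized intensities gave miR-155-5p a fitted value of -0.59 (adjusted p = 0.0192 in limma), in place of -0.29. In these intensities every peri value of both groups lay below the floor of 50 units, as did those of PostC core rats 1 and 2 (21.8 and 38.09). The value of -0.59 is therefore set in part by the floor and is not a measured fold. On the core arrays of rats 1 and 2 in PostC, miR-155-5p was 6.75 and 7.14, below the 7.66 of the lowest tMCAO core array, and the 7.996 of rat 3 was above all of them.

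For the 4 members detected throughout, the miRNAs closest in pattern over the 6 group means were sought among the 532, after centring each, by the root mean square difference. The group means of miR-150-5p spanned 1.58. The probe nearest to it by this value was another member, miR-155-5p (0.06), but miR-155-5p was above the limit on 3 arrays only and in 4 of the 6 groups its mean is a background level, so that this likeness is not a measured one. Next came miR-138-2-3p, detected on 16 arrays, at 0.14. The nearest to miR-146a-5p were miR-6331 (0.08) and let-7b-3p (0.12), detected on 10 and 8 of the 18 arrays. The nearest to miR-146b-5p were miR-30c-2-3p (0.05) and miR-100-3p (0.05), detected on 9 and 6 arrays, so that these values rest in part on background levels too, and the means of miR-146b-5p spanned only 0.25. For miR-21-5p, whose group means spanned 3.02, the nearest were farther away, miR-434-3p at 0.52 and miR-672-5p at 0.61. The 6 means of a probe share the same arrays, so this likeness is a description.

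The other arms of the members' hairpins were mostly dark. Of miR-155-3p, miR-146a-3p, miR-146b-3p, miR-223-5p and miR-150-3p, only miR-150-3p was detected on at least 3 arrays. It was not above the limit on any tMCAO core array, and no fold change is given for it. Among 10 further miRNAs linked to immune signalling, 9 were tested and none was higher after tMCAO at the adjusted threshold, where 1.88% of all miRNAs were called higher in core and 4.51% in the rat means. In core miR-29b-3p fell by 3.91 on the log2 scale (limma, standard error 0.89, adjusted p = 0.0427), and in the rat means miR-29b-3p fell by 2.46 and miR-9a-5p by 1.18 (adjusted p = 0.0105 and 0.0411). Of all miRNAs, 1.69% were called lower in core and 7.33% in the rat means. The median of the 9 in core was -0.04.

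Levels of miRNAs of other cells were set beside the members. In core none of them passed, and the lowest adjusted p was 0.0842, for miR-338-3p (unadjusted p = 0.00333 in limma). In tMCAO core, the summed intensity of 2 oligodendrocyte miRNAs, miR-219a-5p (not detected in tMCAO core) and miR-338-3p, was 309 to 693 units, and 1975 to 12667 units in sham core. That of 2 endothelial miRNAs, miR-126a-3p and miR-126a-5p (the latter not detected in tMCAO core), was 3784 to 7548 units in tMCAO core and 8485 to 15925 units in sham core. The sum of 5 neuronal miRNAs overlapped, at 54818 to 64750 units in tMCAO core and 59818 to 73474 units in sham core. Its members differed in direction: miR-137-3p and miR-153-3p fell in the rat means, with log2 differences of -1.62 (adjusted p = 0.0185 in limma) and -1.35 (adjusted p = 0.0462), and had -2.56 and -2.90 in core, whereas miR-128-3p had 0.37 in core. Of the 3 red blood cell miRNAs, miR-144-3p was detected on no array, miR-451-5p differed by -0.03 in core, and miR-486 by 1.91 in core (adjusted p = 0.0936 in limma). In the rat means miR-486 had a fitted value of 1.39 (adjusted p = 0.0116 in limma). It was detected on 9 arrays and on none of tMCAO peri, so the rat-mean value is not a measured fold. The sum of the 3 miRNAs was 2975 to 4242 units in tMCAO core and 2466 to 4347 units in sham core. The part of these cells, and of blood left in the vessels, in the changes of miR-150-5p and miR-155-5p was not tested.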

How the data were processed

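The authors deposited, for each of the 18 Cy5 arrays, the intensity of every spot, with no background subtraction, and a second table of linear normalized intensity values, for which background was subtracted and a locally weighted regression applied. Here the spot intensities were corrected by normexp (offset 50), log2 values of the 4 spots of a probe were averaged and cyclic loess was applied over the arrays. Control spots were left out. miRNAs detected on at least 3 arrays were tested with limma 3.58.1 in R 4.3.3 (variance trend, Benjamini-Hochberg adjustment at 0.05). Each regional fit held the 9 arrays of that region, and rat means averaged core and peri. The normalization makes every change relative to the other miRNAs. The fits were tested on simulated data.

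All members are named. Changes are given for tMCAO in core and peri where a fold could be measured and, in other comparisons, where the unadjusted p was under 0.05. Other differences of miR-21-5p, and those without PostC rat 3, were added after their values were seen. The members and lists were chosen with earlier results of these data known. Where a probe was not above background on any array of a group, the fold is a lower bound, computed against the higher of the lowest detected signal and the probe's own value on each array of that group. The alternatives were quantile normalization, plain subtraction (floor of 1), scaling to the median, removal of the GC trend, the deposited intensities with a floor of 50, other filters and detection limits, other limma settings, the methods' t-test and leaving out each rat. The PostC regions alone, and PostC without rat 3, were added after seeing the data. Depth does not apply to arrays, and their number limits the precision. The organism field of the labels names Rattus rattus, although Sprague Dawley is a strain of Rattus norvegicus. The labels name a miRNeasy kit for RNA extraction and the methods name Trizol. Genomic positions are not given here, as no genome was used. Other tools were Python 3.11.15, numpy 2.4.6, pandas 2.3.3 and matplotlib 3.10.9.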

Additional observations from a re-analysis of the deposited data

How the results depend on the processing

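Of the 8 members tested, 2 passed in tMCAO core, where 3.57% of all miRNAs did. This number was 1 with plain subtraction (0.94% of all), quantile normalization (3.01%), median scaling (2.07%), the deposited intensities (0.94%) and the methods' t-test (0.564%). With detection on all 18 arrays, which drops miR-155-5p, it was 1 of the 4 members tested (8.51%). It was 0 with the replicate number as a block (0.564%) and 0 to 1 with each rat left out (0% to 2.44%). In the rat means the number was 2, where 11.8% of all miRNAs passed. It became 1 with plain subtraction (8.27% of all), median scaling (23.5%), detection on all 18 arrays (13.5%), the methods' t-test (4.14%) and the replicate block (7.89%). With the GC trend removed it was 3, which adds miR-146a-5p (14.1%). With a rat left out it was 0 to 3 (1.5% to 17.3%). The 3 came without tMCAO rat 3, where miR-223-3p also passed, with a fitted value of 1.24 (adjusted p = 0.0364 in limma). No peri array was above the limit for miR-223-3p, so this is not a measured fold. In peri median scaling gave 2 of 8 in place of 0, miR-21-5p and miR-21-3p, where 23.7% of all miRNAs passed. In PostC against tMCAO the deposited intensities gave 1, miR-155-5p, whose value rests in part on the floor (6.02% of all miRNAs passed). Leaving out a rat gave 0 to 2 there (1.5% to 7.52% of all). The difference of the regions and PostC against sham gave 0 under every alternative run, where at most 0.188% and 0.564% of all miRNAs passed. Rats with the same number did not deviate together (correlations from -0.40 to 0.22 over miRNAs), so the replicate block is given here only. With the block, the adjusted p in tMCAO core was 0.0767 for miR-155-5p and 0.0867 for miR-150-5p, and in the rat means 0.0725 for miR-150-5p.

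The sign of small differences between tMCAO and sham turned in some settings. Those of miR-155-5p, miR-223-3p and miR-142-5p in peri, and of miR-142-5p in core, are fitted values with at least 1 group at background, and not measured folds. In core it was -0.039 for miR-146b-5p with median scaling and 0.11 for miR-142-5p with the GC trend removed. With 1 rat left out, miR-146b-5p lay between -0.00039 and 0.17 in core and between -0.25 and 0.26 in peri, negative without sham rat 1 in both and without tMCAO rat 3 (-0.15) in peri. Also in peri, miR-142-5p was 0.38 with plain subtraction, 0.15 with median scaling and 0.0070 with the GC trend removed. Quantile normalization gave -0.11 for miR-155-5p and -0.24 for miR-223-3p, and the latter ranged from -0.0069, without tMCAO rat 1, to 0.45 with 1 rat left out. Median scaling gave -0.88 for miR-146a-5p, -1.11 for miR-146b-5p and -0.68 for miR-150-5p in peri, and -0.091 for miR-146a-5p in the rat means. The deposited intensities gave -0.051 for miR-146b-5p in peri. None of these values passed the adjusted threshold. Median scaling moved the median of all miRNAs to -0.41 in peri and -0.20 in the rat means, and the cause of these changes was not tested. With the deposited intensities, no value could be given where both groups lay at the floor. Slide and scan as a block could not be run, as neither is given in the sources used here. Dim members are limited by signal over background.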
